A study of Mus musculus with 13 samples.

Results

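Effector memory CD8 T cells sorted at day 45 after infection, labelled Tem, were profiled as single cells with quantitative PCR assays. All 136 columns headed Tem in the deposited table were taken, out of 1449 cells in 13 populations, and no cell was left out. Each cell carries values for 95 assay rows, which measure 94 genes because Il2 has 2 rows. The Tem cells were OT-1 cells, which bear a transgenic T cell receptor for an ovalbumin peptide and the CD45.1 allele. In the labels' protocol, 5000 OT-1 cells were transferred into CD45.2 C57BL/6J mice, which were infected intravenously with 5000 CFU of Listeria monocytogenes expressing ovalbumin. The cells were sorted from spleen, one cell per tube, straight into the amplification mix. The cells set beside them were 138 central memory cells (Tcm) of day 45 and 89 cells of day 7 labelled Day_7_Tsle, both from transfers of 5000 OT-1 cells into such infected mice. The baseline was 149 naive CD8 cells that had not been activated. The labels do not say how Tem was gated from Tcm, how many mice were used or which array a cell was run on. Each population was therefore treated as 1 sample, and populations are compared by size of difference, without p-values.

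Effector memory cells patrol blood and peripheral tissue after an infection has cleared and can resume effector functions quickly, while central memory cells recirculate through lymph nodes and divide well on re-encounter. Tcf7 encodes TCF-1, a transcription factor that maintains naive and memory programs, and Zeb2 encodes a repressor that works with T-bet in terminally differentiated effector cells. Klf2 encodes a factor that keeps T cells in circulation by driving egress receptors. Il2rb encodes the receptor chain shared by interleukin 2 and interleukin 15, the cytokine that sustains memory CD8 cells. Il7r encodes the receptor chain for interleukin 7, and Cxcr3 a chemokine receptor that guides cells to inflamed tissue. Ccl5 encodes a chemokine whose transcript antigen-experienced CD8 cells store.

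A value above 0 means that the assay gave a product, and a value of 0 that it did not. Values lie on a log2 scale of PCR cycles, where 1 cycle is about a doubling of template, and a higher value means more template. Values compare cells within an assay, not 1 gene with another, because assays differ in efficiency. The intervals given with shares are exact (Clopper-Pearson) 95% intervals and cover counting error only. Where 0 of 136 cells had a gene, 3 counts of the total would be a share of 2.21%, and the exact interval reaches 2.68%.

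The Tem cells gave products in few assays. The median Tem cell had 11 of the 95 assays above 0, with a range of 6 to 20, against a median of 17 and a range of 10 to 24 in Tcm. The median was 13 in Day_7_Tsle and 12 in naive cells, and that of Tem was the lowest of the 13 populations. The transcripts found in every cell were also lower. The median Actb value was 17.13 cycles in Tem, 20.99 in Tcm, 20.22 in Day_7_Tsle and 19.31 in naive cells. The median R18s value, for 18S ribosomal RNA, was 25.74 in Tem, 27.34 in Tcm, 26.40 in Day_7_Tsle and 27.98 in naive cells. Gapdh was lower by less, with a median of 14.6 in Tem, 15.3 in Tcm, 15.4 in Day_7_Tsle and 15.6 in naive cells. Shares of cells with a gene move with the number of assays a cell gave, and the part of this in each difference was not tested; shares are therefore also given for cells with 10 to 15 assays above 0. That range held 87 Tem cells, 45 Tcm cells, 61 Day_7_Tsle cells and 116 naive cells. It takes in the upper part of the Tem cells and the lower part of the Tcm cells. The number of assays counts the compared genes themselves. Choosing cells by it can therefore by itself balance lower and higher shares, and that part was not tested.

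**Figure D1:**
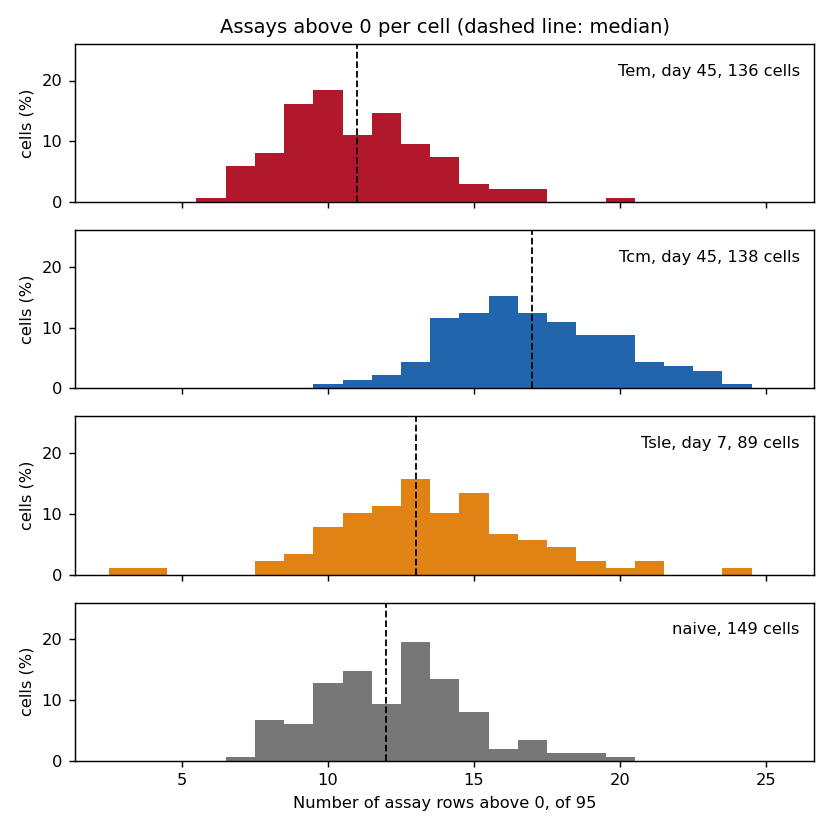
Percent of cells (y axis) by the number of the 95 assays above 0 (x axis), in 1 panel each for Tem, Tcm, Day_7_Tsle and naive cells, with dashed lines at the medians. The Tem median is 11 assays, against 17 in Tcm, 13 in Day_7_Tsle and 12 in naive cells.

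Most of the 94 genes were rare in Tem. A product was seen in at least 1 Tem cell for 69 genes and in none for 25. The share was at least 90% for 4 genes, between 50% and 90% for 3, between 20% and 50% for 8, between 5% and 20% for 19 and above 0 but under 5% for 35. The 4 most common were R18s, Actb and Gapdh, each found in 136 of 136 cells, and Ccl5, found in 135 of 136 (99.3%, interval 95.97 to 99.98).

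The label comes from the sort. Ccl5, Klf2, Tcf7 and Zeb2 were taken as marker transcripts of Tem, which is not a check of the gates. Ccl5 was in nearly every cell, with a lowest value of 8.41, a median of 13.44 and a highest of 17.32 cycles among the cells that had it. Klf2 was in 101 cells (74.3%, 66.1 to 81.4), with values of 11.53 to 18.11 around a median of 16.09. Tcf7 was in 65 cells (47.8%, 39.2 to 56.5), with values of 13.02 to 17.50 around a median of 15.56. Zeb2 was in 33 cells (24.3%, 17.3 to 32.4), with values of 1.95 to 16.19 around a median of 14.61. Of these 4 markers, Ccl5 and Klf2 do not tell Tem from Tcm by share, being in 100% and 81.9% of Tcm cells. The height of Ccl5 did differ, with a median of 13.44 cycles in Tem and 18.15 in Tcm. Tcf7 was common in both populations but in a higher share of Tcm cells (71.7%), and Zeb2 was in a lower share (7.97%).

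Genes of CD8 T cell identity were found unevenly. Ptprc, which encodes CD45, was in 113 cells (83.1%) and Thy1 in 28 cells (20.6%). Cd8a encodes the CD8 alpha chain, the protein stained for in the sort, and its assay was at 0 in 87 of the 136 cells and above 0 in 49 (36.0%). Cd44, also stained for, was above 0 in 2 cells. An assay at 0 in a Tem cell therefore does not show that the cell lacked the protein. Of Cd4, Foxp3 and Gata3, markers of other T cells, Cd4 and Foxp3 were at 0 in all 136 cells and Gata3 was above 0 in 2. Genes of B cells and myeloid cells are not on the panel.

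Among cytokine receptors, Il2rb was in 28 cells (20.6%, 14.1 to 28.4), with values of 13.73 to 17.79 around a median of 15.89. Il7r was in 21 cells (15.4%, 9.82 to 22.6) and Il2ra, the high-affinity chain for interleukin 2, in 20 (14.7%). Ifngr1, a chain of the interferon gamma receptor, was in 26 cells (19.1%). Of the chemokine receptors, Cxcr3 was in 32 cells (23.5%, 16.7 to 31.6), with values of 10.50 to 18.17 around a median of 16.41, and Ccr7, which directs cells to lymph nodes, was in 6 (4.41%). Cells that had Il2rb, Il7r or Tcf7 had it well above the limit of 12 cycles, corresponding to a threshold cycle of 28: no cell lost the gene when that limit was applied.

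Most effector genes were found in few cells, as were most genes of the panel, of which 69 of 94 were found in any Tem cell and 15 in at least 20%. Lgals1, which encodes galectin-1, was in 72 cells (52.9%, 44.2 to 61.6), but its median was 12.89 cycles and 33.8% of cells kept it at the limit of 12 cycles. Klrc1, which encodes the receptor NKG2A, was in 14 cells (10.3%), Gzmb, a granule protease, in 7 (5.15%), Klrg1, a receptor of terminal effectors, in 6 (4.41%), and Ifng in 5 (3.68%). All 8 effector transcription factors measured were found in some Tem cell, and 2 of them, Zeb2 and Id2, reached 20%. Eomes was in 8 cells (5.88%), Prdm1, which encodes Blimp-1, in 3, and Tbx21, which encodes T-bet, in 1. Id2 was in 28 cells (20.6%), all with values of 8.63 cycles or less, so that none remained at the limit of 12 cycles. Of the 8 factors of naive and memory cells, 7 were found, and Tcf7 and Klf2 were the 2 that reached 20%; Foxo1 was in 6 cells and Lef1 in 5. Of the 6 genes of activation and inhibition, 3 were found in any cell: Cd28 in 23 cells (16.9%), Cd69 in 2 and Tox in 1. Pdcd1, Lag3 and Tnfrsf9, which encode PD-1, LAG-3 and 4-1BB, were at 0 in all 136 cells.

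**Figure D2:**
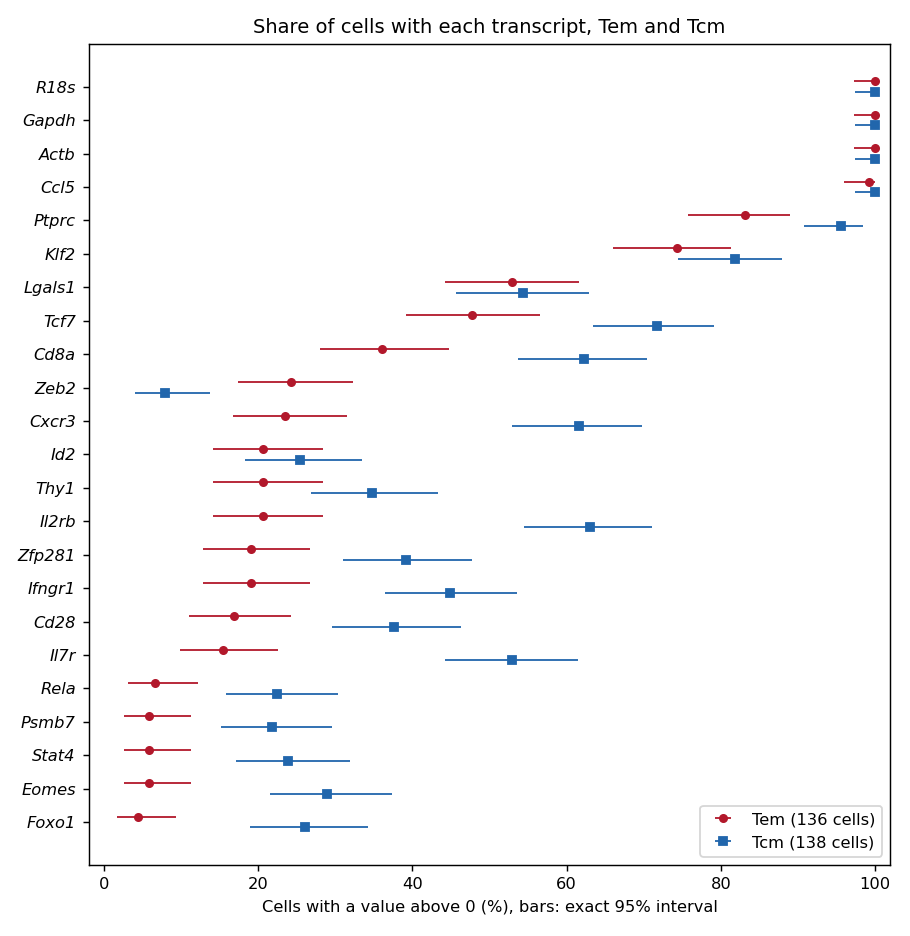
Percent of cells above 0 (x axis) for the genes reported by name that were found in at least 20% of Tem or Tcm cells (y axis), with Tem and Tcm as separate markers and exact 95% intervals as bars. Ccl5 is near 100% in both populations, while Il2rb, Cxcr3 and Il7r stand at 20.6%, 23.5% and 15.4% in Tem against 63.0%, 61.6% and 52.9% in Tcm.

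The Tem columns were not uniform along the table. Divided in file order into 68 earlier and 68 later columns, which is not a labelled batch, the later cells had lower values for abundant transcripts. The median of R18s was 24.94 in later and 26.66 in earlier cells. Actb was 16.26 in later and 18.20 in earlier cells. Ccl5 was 12.67 in later and 14.99 in earlier cells. Lgals1 was 11.41 in the later and 14.42 in the earlier cells that had it. The shift was not common to all genes. Ptprc stood at 15.34 in later and 15.28 in earlier cells, and Cxcr3 at 16.64 in later and 15.58 in earlier cells. Of 25 genes found in 10 or more Tem cells, 12 had a median at least 1 cycle lower in the later columns and 4 had one at least 1 cycle higher. The median number of assays above 0 was 11 in later and 10 in earlier cells.

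By mean level, the cycles above 12 with 0 for undetected cells, 4 of 94 genes (4.26%) were at least 1 cycle lower in later columns and 1 (1.06%) was higher. By share, Tcf7 alone (1.06%) differed by 20 percentage points or more, and most genes were too rare to do so. Tcf7 was found in 58.8% of later and 36.8% of earlier cells. Cxcr3 came next among the genes of the co-detection set, in 32.4% of later and 14.7% of earlier cells. Il2rb was in 20.6% of each, Zeb2 in 22.1% of later and 26.5% of earlier cells, and Klf2 in 70.6% of later and 77.9% of earlier cells. Shares of Tcf7 and Cxcr3 are thus means over columns that differ, and the source of the difference was not tested.

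Correlations of Ccl5 height with reference transcripts were higher across all Tem cells than within either set of columns. Across the 135 cells with Ccl5, its value had a Pearson correlation of 0.69 with Actb and 0.70 with R18s. Within the 68 earlier cells these were 0.40 and 0.39, and within the 67 later cells 0.45 and 0.41. With Gapdh the correlation was lower, at 0.29 over all cells, 0.25 in earlier and -0.05 in later cells. These are descriptions across cells of 1 sample, whose points share the amplification of each cell. R18s height was weakly related to the number of assays above 0, with a correlation of 0.11 over 136 cells, 0.22 in earlier and 0.29 in later cells.

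**Figure D3:**
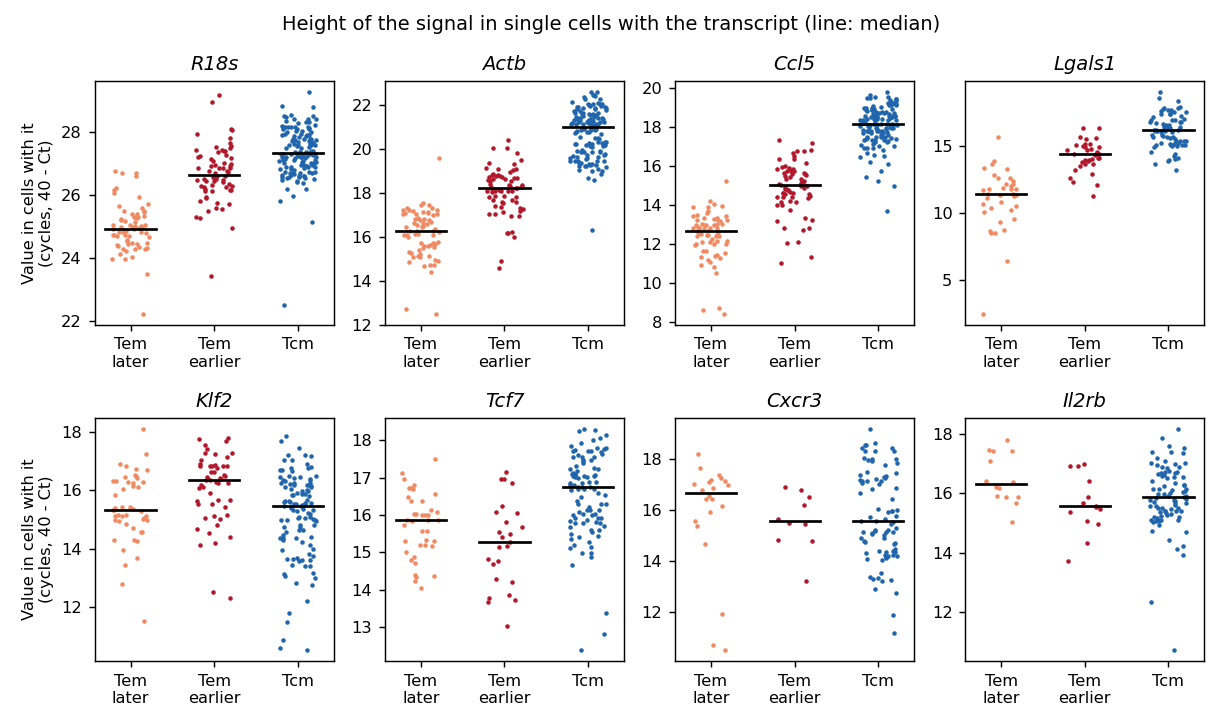
Values above 0 in cycles (y axis) in single Tem cells, for the later and earlier 68 columns, and in Tcm cells, in 1 panel for each of 8 genes. Points are cells and lines are medians: R18s, Actb and Ccl5 lie lower in later columns, with medians of 24.94, 16.26 and 12.67 against 26.66, 18.20 and 14.99 in earlier columns.

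Tcf7, Zeb2, Klf2, Il2rb and Cxcr3 were combined in many ways. Of 32 possible combinations, 24 were seen, and 12 of them in only 1 or 2 cells. Klf2 alone was the most common, in 26 cells (19.1%). Tcf7 with Klf2 followed in 16 cells (11.8%) and Zeb2 with Klf2 in 14 (10.3%), so that these 3 combinations held 56 of the 136 cells. None of the 5 genes was found in 11 cells, 1 in 39, 2 in 49, 3 in 26, 4 in 11 and all 5 in none. The number found moved with the number of assays: the median cell with none of the 5 had 8 assays above 0, and the median cell with 4 had 14.

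Il2rb was found more often in Tem cells with Tcf7. It was in 20 of the 65 cells with Tcf7 (30.8%, 19.9 to 43.4) and in 8 of the 71 without (11.3%, 4.99 to 21.0). Seen the other way, Tcf7 was in 71.4% of the cells with Il2rb and in 41.7% of those without. The phi coefficient, a correlation of presence and absence, was 0.24 over 136 cells. It was positive in both sets of columns, at 0.20 in later and 0.29 in earlier ones, although Tcf7 itself differed between them. Of 68 other genes, 3 (4.41%) were at least 20 points more frequent in cells with Il2rb, namely Tcf7, Zfp281 and Rpl35, and none (0%) was so in cells with Tcf7, where Il2rb differed by 19.5 points. Cells with Il2rb also had more of the other assays, with a median of 12.5 against 10 in cells without it. Phi was 0.28 in cells with more than the median number of other assays and 0.17 in cells at or below it. In Tcm the same pair had a phi of 0.02, in naive cells 0.13 and in Day_7_Tsle, where 3 cells had Tcf7, -0.11. It was 0.14 among cells labelled Day_7_Tmp, -0.13 among Day_3_bulk and -0.18 among Distal cells. Its sign was thus not the same in every population, and these differences between populations were not tested.

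Cxcr3 was found less often in Tem cells with Zeb2. It was in 2 of the 33 cells with Zeb2 (6.06%, 0.743 to 20.2) and in 30 of the 103 without (29.1%, 20.6 to 38.9). This was the only gene (1.47% of 68) at least 20 points apart between cells with and without Zeb2, and Zeb2 in turn the only one (1.47%) between cells with and without Cxcr3. Phi was -0.23, and it was -0.29 in later and -0.16 in earlier columns. The count of both genes was 1 cell in each set of columns. Phi was -0.36 in cells with more than the median number of other assays and -0.11 in cells at or below it. The median number of other assays was 10 in cells with and without Zeb2 over all columns, and 10 with and 11 without it in later columns. It was 11 in cells with and 10 in cells without Cxcr3. With a limit of 12 cycles phi was -0.20. The pair had a phi of -0.39 among 134 unsorted cells of day 7 (Day_7_bulk), -0.13 in Day_7_Tsle, -0.04 in Tcm and 0.21 among 62 cells labelled Day_7_Tmp, so its sign was not the same in every population.

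The other 8 pairs of the set had smaller phi values over all Tem cells. Tcf7 and Zeb2 were found together in 13 Tem cells, and Zeb2 was in 20.0% of cells with Tcf7 and 28.2% of those without, with a phi of -0.10. Cells with both genes were thus present. Phi of this pair moved with the number of assays: it was -0.29 in cells with more than the median number of other assays, 0.04 in cells at or below it and -0.20 in cells with 10 or more assays. Klf2 was in 84.8% of cells with Zeb2 and 70.9% of those without (phi 0.14), and in 70.8% of cells with Tcf7 and 77.5% of those without (phi -0.08). Cxcr3 was in 30.8% of cells with Tcf7 and 16.9% of those without (phi 0.16), and in 35.7% of cells with Il2rb and 20.4% of those without (phi 0.15). The remaining 3 pairs, Zeb2 with Il2rb, Klf2 with Il2rb and Klf2 with Cxcr3, had phi values of 0.01, 0.09 and 0.01. Among cells with 10 to 15 assays, phi was 0.22 for Zeb2 with Klf2, -0.22 for Tcf7 with Klf2, 0.10 for Tcf7 with Cxcr3 and 0.00 for Il2rb with Cxcr3. Unlike the number of other assays, the selections at 10 or more and at 10 to 15 assays count both genes of the pair. Choosing cells in this way can by itself move phi, and that part was not tested.

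These values were read against all pairs of genes. The 19 genes found in 10% to 90% of Tem cells form 171 pairs, whose phi ranged from -0.23 to 0.26 around a median of 0.02. Phi was at least 0.2 in 6 pairs (3.51%) and at most -0.2 in 2 (1.17%). All 8 had the same sign in earlier and later columns. This is not a separate check, because the 8 were picked from the same cells. Zeb2 with Cxcr3 was the lowest of the 171. The other negative one was Zeb2 with Id2 (-0.20), whose Id2 values all lie under the limit of 12 cycles. The positive ones were Il2rb with Zfp281 (0.26), with Rpl35 (0.25) and with Tcf7 (0.24), Il2ra with Lgals1 (0.23) and with Cd8a (0.21), and Cxcr3 with Cd28 (0.21). Il2rb thus stood in 3 of the 6, and cells with it also had more of the other assays (median 12.5 against 10). Rpl35 was in 20 Tem cells around a median of 11.50 cycles, and 7 of them kept it at the limit of 12 cycles. Zfp281, which encodes a zinc finger factor, was in 39.3% of cells with Il2rb and 13.9% of those without, but its phi with Il2rb was 0.43 in later and 0.07 in earlier columns.

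**Figure D4:**
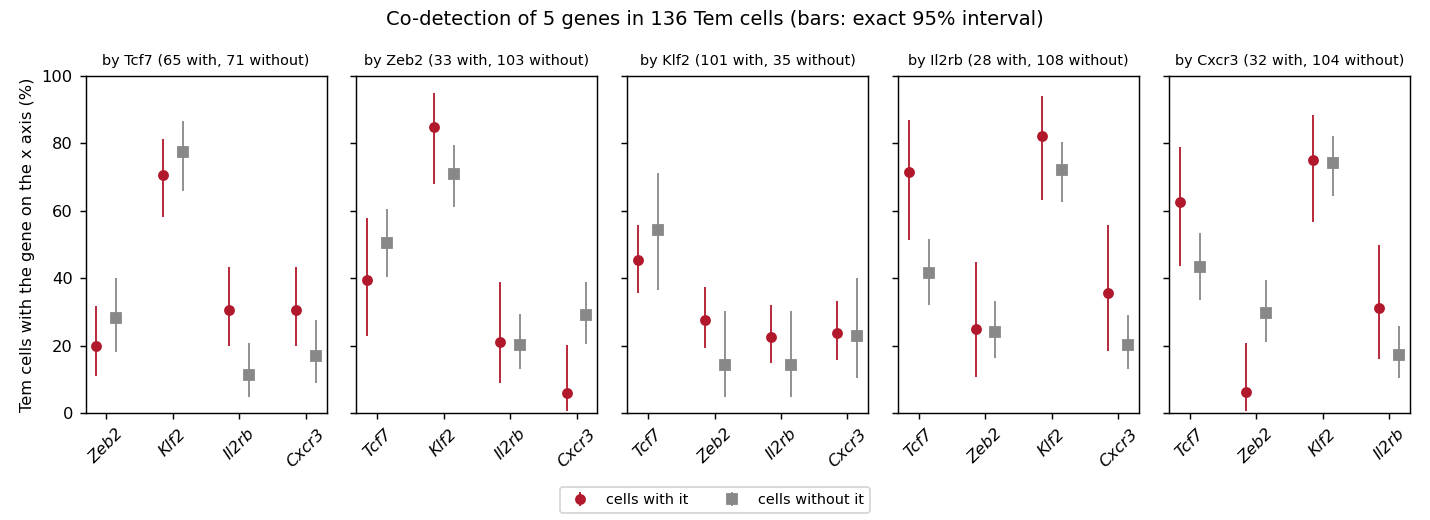
Percent of Tem cells with the gene on the x axis, among cells with (left point) and without (right point) the gene named above each panel; bars are exact 95% intervals. Il2rb stands at 30.8% in cells with Tcf7 and 11.3% without, and Cxcr3 at 6.06% in cells with Zeb2 and 29.1% without.

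Against central memory cells of the same day, Tem had fewer cells with Il2rb, Il7r and Cxcr3. Of 94 genes, 12 (12.8%) were found in a share of cells at least 20 points lower in Tem, and none (0%) in a share at least 20 points higher. Il2rb was in 20.6% of Tem and 63.0% of Tcm cells. Cxcr3 was in 23.5% of Tem and 61.6% of Tcm cells, and Il7r in 15.4% of Tem and 52.9% of Tcm cells. Of the 4 cytokine receptors, 3 were in the list of 12, the third being Ifngr1 with 19.1% of Tem and 44.9% of Tcm cells. The fourth, Il2ra, had the other direction, in 14.7% of Tem and 9.42% of Tcm cells, and in 16.1% and 4.44% of those with 10 to 15 assays. Tcf7 was in 47.8% of Tem and 71.7% of Tcm cells, and Cd8a in 36.0% and 62.3%. Eomes, counted above with the effector factors, was in 5.88% of Tem and 29.0% of Tcm cells. Foxo1, Cd28 and Zfp281 were lower by 20.0 to 21.7 points. Whether any of these receptors was part of the gates is unknown.

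The Tcm difference was broad. Of 50 genes found in at least 5% of either population, 42 had a lower share in Tem and 5 a higher one, with a median difference of -7.12 points. Among cells with 10 to 15 assays, a choice that can by itself bring such balance, 27 were lower and 19 higher, with a median of -0.84. Within that range, 3 genes common to CD8 T cells had like shares: Cd8a was in 48.3% of Tem and 48.9% of Tcm cells, Ptprc in 92.0% and 88.9%, and Klf2 in 79.3% and 80.0%. Tcf7 was in 50.6% of Tem and 57.8% of Tcm cells there, and Eomes in 4.60% and 15.6%. Cd28 was in 14.9% of Tem and 26.7% of Tcm cells, Zfp281 in 18.4% and 31.1%, and Ifngr1 in 21.8% and 33.3%. Foxo1 turned direction there, with 5 of 87 Tem cells (5.75%) and 0 of 45 Tcm cells.

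In the same range of assays, 4 genes (4.26%) remained at least 20 points lower in Tem. Cxcr3 was in 27.6% of Tem cells (18.5 to 38.2) and 60.0% of Tcm cells (44.3 to 74.3). Il7r was in 17.2% of Tem cells (9.98 to 26.8) and 48.9% of Tcm cells (33.7 to 64.2). Il2rb was in 20.7% of Tem cells (12.7 to 30.7) and 48.9% of Tcm cells (33.7 to 64.2). These 3 were also at least 20 points lower at the limit of 12 cycles and in every pairing of earlier or later columns of Tem with those of Tcm. Across those pairings Il2rb was lower by 37.4 to 47.5 points, Cxcr3 by 28.5 to 47.6 and Il7r by 24.4 to 50.6. With both restrictions together, a combination chosen after seeing the data, of these 3 only Il7r kept 20 points in every pairing, with 14.0% of later and 20.5% of earlier Tem cells against 47.8% of later and 50.0% of earlier Tcm cells. Cxcr3 was then in 39.5% of later and 15.9% of earlier Tem cells against 65.2% of later and 54.5% of earlier Tcm cells. Il2rb was in 23.3% of later and 18.2% of earlier Tem cells against 60.9% of later and 36.4% of earlier Tcm cells. Cells that had Il2rb or Il7r had it at close to the same height in both populations: the Il2rb median was 15.89 in Tem and 15.88 in Tcm, and the Il7r median 16.16 in Tem and 16.28 in Tcm.

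Zeb2 went the other way, and Lgals1 did so under some settings. Zeb2 was in 24.3% of Tem and 7.97% of Tcm cells, a difference of 16.3 points that is under the 20-point rule. It was 24.1% and 6.67% among cells with 10 to 15 assays, and the pairings of columns gave 10.5 to 22.1 points, all higher in Tem. Lgals1 was in 52.9% of Tem and 54.3% of Tcm cells. Among cells with 10 to 15 assays it was in 60.9% of Tem and 31.1% of Tcm cells, the only gene (1.06%) at least 20 points higher in Tem there. At the limit of 12 cycles over all cells its direction turned, with 33.8% of Tem and 54.3% of Tcm cells, since Lgals1 values in Tem lay close to that limit.

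Mean level was at least 1 cycle lower in Tem than in Tcm for 12 genes (12.8%) and higher for none (0%). Ccl5 differed most, at 1.80 cycles in Tem and 6.06 in Tcm, followed by Actb at 5.10 in Tem and 8.73 in Tcm among the genes named here. Ptprc was at 2.73 in Tem and 5.63 in Tcm, and R18s at 13.84 in Tem and 15.37 in Tcm. Pdcd1 was above 0 in none of the 136 Tem cells and in 15.2% of Tcm cells, of which the later columns had 1.45% and the earlier columns 29.0%. Klf2 did not share the lower level: its mean level was 2.79 in Tem and 2.60 in Tcm, and the median in cells that had it was 16.09 in Tem and 15.46 in Tcm. Gapdh, also found in every cell, was lower by less, at 2.52 in Tem and 2.87 in Tcm. Since Actb and R18s were lower together with Ccl5, a lower Ccl5 level and less template per cell cannot be told apart here.

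Against naive cells, whose median number of assays was 1 above that of Tem, 3 genes (3.19%) were at least 20 points higher in Tem and 7 (7.45%) at least 20 points lower. Ccl5 was in 99.3% of Tem and 1.34% of naive cells, Lgals1 in 52.9% and 4.70%, and Zeb2 in 24.3% and 1.34%. Among cells with 10 to 15 assays Cxcr3 joined them (4.26% of genes), in 27.6% of Tem and 3.45% of naive cells. Klrc1 was in 10.3% of Tem cells and in 0 of 149 naive cells. On the lower side, Ccr7 was in 4.41% of Tem and 34.9% of naive cells, and Tcf7 in 47.8% and 75.2%. Foxp1, a factor of T cell quiescence, was in 5.88% of Tem and 28.9% of naive cells, and Rela, a subunit of NF-kappa B, in 6.62% and 28.2%. Zfp281 was in 19.1% of Tem and 45.6% of naive cells, and the proteasome gene Psmb7 in 5.88% and 26.8%. The 7 genes lower over all cells were also lower by 20 points among cells with 10 to 15 assays. None of those named here was at least 20 points lower in every setting. At the limit of 12 cycles Ccr7 was in 4.41% of Tem and 22.1% of naive cells, and Psmb7 in 5.88% and 16.1%. The other named ones stayed at least 20 points lower at that limit. Pairings of columns gave differences of -31.6 to -29.4 points for Ccr7, -39.2 to -15.5 for Tcf7 and -39.8 to -13.1 for Zfp281. They gave -39.0 to -3.18 for Psmb7, -28.1 to -15.0 for Rela and -26.1 to -19.8 for Foxp1. Il2rb did not separate the populations, in 20.6% of Tem and 19.5% of naive cells, and Il7r was in 15.4% and 32.9%.

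Mean level was at least 1 cycle higher in Tem than in naive cells for 1 gene (1.06%), Ccl5, at 1.80 in Tem and near 0 in naive cells. It was at least 1 cycle lower for 6 genes (6.38%), among them Actb at 5.10 in Tem and 7.16 in naive cells, R18s at 13.84 and 15.78, and Tcf7 at 1.69 and 3.33. Klf2 was in 74.3% of Tem and 79.9% of naive cells, with medians of 16.09 and 16.17 in the cells that had it.

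Against Day_7_Tsle, Tcf7 was the only gene (1.06%) at least 20 points higher in Tem, in 47.8% of Tem and 3.37% of Day_7_Tsle cells. Among cells with 10 to 15 assays it was in 50.6% of Tem and 4.92% of Day_7_Tsle cells. On the lower side were 4 genes (4.26%), among them Lgals1 in 52.9% of Tem and 85.4% of Day_7_Tsle cells, Zeb2 in 24.3% and 48.3%, and Klrg1 in 4.41% and 28.1%. Among cells with 10 to 15 assays, Lgals1 and Klrg1 were the 2 genes (2.13%) that remained at least 20 points lower. At the limit of 12 cycles Klrg1 was in 3.68% of Tem and 7.87% of Day_7_Tsle cells, and the pairings of columns gave differences of -35.7 to -11.9 points. Lgals1 stayed at least 20 points lower in all of these settings. Il2rb was in 20.6% of Tem and 27.0% of Day_7_Tsle cells, and Cxcr3 in 23.5% and 27.0%.

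Across all 13 populations, Tem held an intermediate place for Tcf7 and Zeb2 and the lowest but 1 for Il2rb. The Tcf7 share in Tem, 47.8%, lay between 83.1% at the top (Prox, cells of day 2) and 0 of 79 Day_5_Tsle cells. Its interval overlapped those of Distal (64.6%) above it and of Day_7_Tmp (41.9%) and Day_5_Tmp (38.9%) below it. The Zeb2 share, 24.3%, lay between 1.34% in naive and 48.3% in Day_7_Tsle cells, with Day_7_Tmp at 19.4% and Day_5_bulk at 31.8% as its neighbours, both with overlapping intervals. The Il2rb share, 20.6%, was close to those of naive (19.5%) and Day_7_Tsle cells (27.0%), and under those of Day_5_bulk (70.1%) and Tcm (63.0%). Klf2, 74.3%, was the lowest of the populations of day 5 and later, which ranged up to 93.5%. It stood apart from the 31.2% to 37.8% of the populations of days 2 and 3. Those earlier populations did not share the transfer of 5000 OT-1 cells. The number was 2000000 for FirstDiv of day 2 and 20000 for Day_3_bulk, and none is given for Prox and Distal. The part of the transfer in these differences was not tested.

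**Figure D5:**
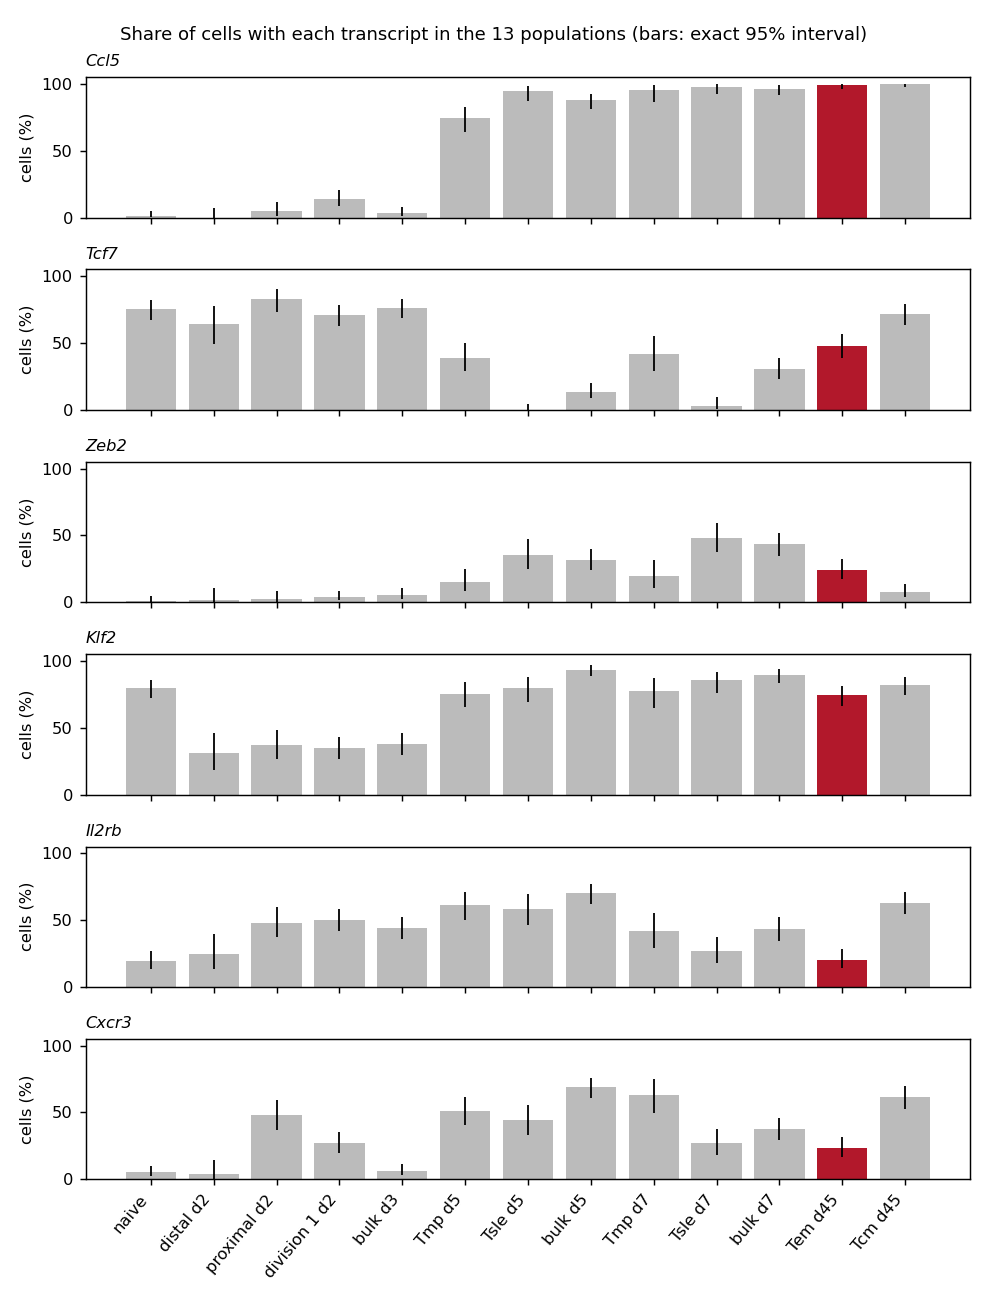
Percent of cells above 0 (y axis) in each population (x axis) for the genes of the Tem set, with exact 95% intervals. Tem has 47.8% for Tcf7, 24.3% for Zeb2, 20.6% for Il2rb and 23.5% for Cxcr3.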

How the data were processed

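The deposited values are on a log2 scale of PCR cycles: per the labels' protocols, the authors amplified the RNA of single sorted cells for 18 cycles, diluted the product 5-fold and read threshold cycles (Ct) of TaqMan assays on a BioMark system. The table holds values that grow with RNA amount, with 0 for no product, and was read here as 40 minus Ct; the 40 is inferred from the values and is not given in the sources used here. No further normalization was applied. Gene names were matched by accession to RefSeq (93 of 95 rows).

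Shares of cells above 0, exact 95% intervals, levels above 12 cycles (Ct 28) and phi coefficients were computed with Python 3.11.15, numpy 2.4.6 and scipy 1.17.1 and tested on simulated data. Differences are called at 20 points in share or 1 cycle in mean level. Each population is 1 sample, so nothing was tested between populations, and the spread between animals is unknown. Depth here is the number of assays per cell. No cell has the same values as another.

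Members, gene lists and rules were chosen with earlier results of these data known. Named were the markers and the co-detection set, genes in at least 20% of Tem cells, the 12 largest differences in each comparison, and members of the lists. 2 genes count in all totals and are not reported here by name. The alternatives were another limit, cells with 10 or more or with 10 to 15 assays, earlier and later columns, other size rules, a filter on genes and centring on Actb and Gapdh. A division of the Tem columns at the largest step in R18s (70 before, 66 after), and earlier and later columns within cells of 10 to 15 assays, were added after seeing the data.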

Additional observations from a re-analysis of the deposited data

How the results depend on the processing

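Only 5 of the 47 results, the differences of at least 10 points within a pair of genes, could be labelled reversed, and none was. Over the 47 results and 325 alternative values, 264 stayed within the rule for the value and 61 moved. These do not include the share of Lgals1 against Tcm, which was 29.8 points higher in Tem with 10 to 15 assays and -20.5 points apart at the limit, nor phi by the number of other assays, where Tcf7 with Zeb2 turned from -0.10 over all cells to 0.04 at or below the median, and where Zeb2 with Il2rb and Klf2 with Cxcr3, both 0.01 over all cells, also changed sign. Of the genes at least 20 points lower in Tem than in Tcm, 12 over all cells became 4 with 10 to 15 assays, 7 in later columns and 4 at a rule of 30 points; those higher, 0 over all cells, became 1 with 10 to 15 assays, 2 in earlier columns and 1 at 15 points. Against naive cells, the 3 higher became 5 with at least 10 assays and 5 at 15 points, and the 7 lower became 2 at 30 points. Against Day_7_Tsle, the 4 lower became 2 with 10 to 15 assays and 1 at 30 points, and the 1 higher became 2 in earlier columns. Mean levels depended most on the limit: against Tcm, the 12 lower became 5 at a limit of Ct 24, 29 (with 1 higher) without a limit, and 4 (with 2 higher) centred on Actb and Gapdh. Against naive cells, the 1 higher became 0 at Ct 24, 6 without a limit, 2 with at least 10 assays, 2 with 10 to 15 assays, 2 centred, 2 in earlier and 0 in later columns, and the 6 lower became 2 at Ct 24, 20 without a limit, 1 centred and 3 in earlier columns. The causes were not tested, beyond fewer cells in the subsets.

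The Ccl5 share was 84.6% at Ct 28 or below and 100% with at least 10 assays, in earlier columns and before the R18s step. Tcf7 was 58.8% in later and 36.8% in earlier columns, 59.1% after and 37.1% before the step, and Cxcr3 was 32.4% in later, 14.7% in earlier, 31.8% after and 15.7% before. Cxcr3 in cells without Zeb2 was 39.6% in later and 18.0% in earlier columns, 39.2% after and 19.2% before the step. The median number of assays was 9 at Ct 28 or below. Among single pairs outside the leading ones, 16 values moved. No paired analysis was possible because each population is 1 sample with no replicate number, and there was no replicate to leave out.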
